A study of Homo sapiens with 6 samples.

Results

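The nuclear genes for the subunits of the oxidative phosphorylation system were examined in LX-2 cells after silencing of OGT. Members were taken by gene symbol, as all NDUFA, NDUFB, NDUFC, NDUFS, NDUFV, UQCR, COX4 to COX8 and ATP5 genes together with SDHA, SDHB, SDHC and SDHD. Of the 16907 symbols in the files, 84 met this pattern, and 82 of them reached a total of 10 counts over the 6 libraries and were tested among 14853 genes. They comprised 37 symbols of complex I, 4 of complex II, 8 of complex III, 14 of complex IV and 19 of complex V. NDUFA4 and its paralog NDUFA4L2 were placed in complex IV, where the NDUFA4 protein resides, and 2 symbols, NDUFC2-KCTD14 and ATP5MF-PTCD1, stand for read-through transcripts that share exons with NDUFC2 and ATP5MF. The members left out were COX7A1, the muscle and heart isoform of a complex IV subunit, with a total of 9 counts, and ATP5MGL, a copy of the complex V gene ATP5MG, with 3, whereas the lowest totals kept were 118 for COX6B2 and 410 for ATP5MF-PTCD1.

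LX-2 is an established human line of hepatic stellate cells, the liver cells that become collagen-producing myofibroblasts, so all libraries derive from 1 line. Small interfering RNA at 20 nM, either a control (siControl) or one that targets OGT (siOGT), was left on the cells for 72 h with a transfection reagent, and polyadenylated RNA was sequenced from 3 biological replicates per group. OGT links N-acetylglucosamine to serine and threonine residues of nuclear and cytosolic proteins. The siControl and siOGT libraries of one replicate number form a pair, and p-values therefore describe the spread between the 3 pairs of this line.

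The respiratory chain sits in the inner mitochondrial membrane. Complexes I and II take electrons from NADH and succinate, complex III passes them to cytochrome c, and complex IV hands them to oxygen. Complexes I, III and IV pump protons, whose return through complex V, the ATP synthase, drives the formation of ATP. Most subunits are encoded in the nucleus and a few by mitochondrial DNA, and quiescent and activated stellate cells are known to differ in their use of mitochondria and glycolysis. The 13 subunits encoded by mitochondrial DNA had no symbol in the files and could not be analysed here.

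Libraries held 25996770 to 27966801 expected counts, and the members took between 0.58% and 0.68% of the counts of a library. Levels are given as CPM, that is, counts scaled to a common library size by library total and TMM factor. OGT stood at 177, 137 and 121 CPM in siControl and at 40.0, 27.0 and 29.2 CPM in siOGT, a log2 fold change of -2.18 (SE 0.073, adjusted p 2.712e-12), so the labels held in every pair. Of the 9 stellate or myofibroblast markers listed, 8 were in the files and DCN was absent. Their summed level was 6655 to 7746 CPM in siControl and 5927 to 6809 CPM in siOGT. Most of it came from VIM and COL1A1, with siControl means of 3200 and 2658 CPM. ACTA2 was low, at 4.83 to 9.69 CPM over all libraries, and LUM was near 0. COL1A1, COL1A2, THY1 and PDGFRB fell, or 50% of the 8 beside 12.7% of all genes. The other markers, ACTA2 (log2 fold change 0.25) among them, were not called. Summed markers of other liver cells were low, at 6.4 to 12.8 CPM for hepatocytes, 3.06 to 7.69 CPM for endothelial cells and 4.79 to 8.19 CPM for cholangiocytes over all libraries. Among them the hepatocyte marker CYP2E1 rose (log2 fold change 0.74, adjusted p 0.00104) and the endothelial marker VWF fell (-0.93, adjusted p 0.0108). Their siControl means were 4.08 and 2.60 CPM, and the others tested were not called. The 4 leukocyte markers, mostly CD68, summed to 131 to 159 CPM in siControl and 174 to 212 CPM in siOGT. Of these, CD68 rose (log2 fold change 0.46, adjusted p 9.472e-04), whereas CD14 and PTPRC were at -0.26 and -0.089 and were not called. CD3E had too few counts to be tested. The part of these marker shifts in the results below was not tested.

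Silencing of OGT was accompanied by small changes in a minority of the oxidative phosphorylation genes. The clearest was ATP5MC1, 1 of the 3 genes for the c subunit of the ATP synthase ring, which fell by 0.75 on the log2 scale (SE 0.089, adjusted p 1.415e-05). A further 11 members fell by 0.20 to 0.37, namely NDUFA1, NDUFA11, NDUFA2 and NDUFB8 of complex I, COX7B, NDUFA4, COX8A and COX4I1 of complex IV, and ATP5ME, ATP5MC3 and ATP5F1E of complex V. NDUFV3 of complex I and ATP5F1D of complex V rose, by 0.25 and 0.24. No member of complexes II and III passed the test, beside 25.4% of all genes, but only 4 and 8 members were tested there. No member changed 2-fold.

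Genes were called where the edgeR p-value, with the pairs as a block and adjusted over all 14853 genes, was at most 0.05. The 12 members that fell made up 14.6% of the 82, against 12.7% of all genes tested that fell. The 2 that rose made up 2.44%, against 12.7% of all genes that rose, and the 14 called in either direction 17.1%, against 25.4%. Low genes are part of these shares, whereas most members had at least 5 CPM. Of the 10781 genes tested with a mean of at least 5 CPM, 15.99% fell, 15.77% rose and 31.76% were called. The share of members that fell was thus slightly above that of all genes and slightly below that of genes at this level. In bulk RNA, a loss in fewer cells and less RNA per cell cannot be told apart. With libraries scaled by their totals alone, 3 members rose and 9 fell, beside 14.2% and 10.9% of all genes, and with offsets for transcript length and GC content 5 rose and 10 fell, beside 14% and 13.9%, so that the share of rises among the called members moved from 14.3% to 25% and 33.3%.

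Most members shifted slightly downwards. The fold change was below 0 in 58 members and above 0 in 24, with a median of -0.070 and quartiles of -0.14 and 0.015, whereas over all genes tested the median was 0.0068 and the quartiles -0.18 and 0.19. In pairs 1, 2 and 3, respectively 61, 59 and 44 of the 82 members were lower in siOGT, with medians of -0.10, -0.063 and -0.012. Thus the shift was smallest in pair 3. Members lower in all 3 pairs numbered 30, or 36.6%, against 26.6% of all genes, and those higher in all 3 pairs numbered 7, or 8.54%, against 27.4% of all genes. The siOGT libraries lay below all siControl libraries in 11 members, beside 11.8% of all genes, and above them in 2, beside 12.1% of all genes.

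Of the 68 members that were not called, 64 had a 95% confidence interval of the fold change between -0.5 and 0.5, the exceptions being NDUFB1, COX6B2, NDUFA4L2 and ATP5MF-PTCD1. These limits leave room for changes of 0.20 to 0.37, the size of most called ones. In all, 79 of the 82 members had at least 5 CPM in every library. The calls rested on the pairing and in part on single pairs. Without the block, edgeR called 0 of the 82 members, beside 0.875% of all genes, with 7 members at an unadjusted p below 0.05, and DESeq2 without the block called 1, ATP5MC1, beside 6.77%. DESeq2 with the block called 8, beside 19.2%. Without replicate 1 edgeR called 2 members, ATP5MC1 and NDUFA11, both lower, beside 12.5% of all genes, and without replicate 2 and replicate 3 it called 10 and 18, beside 22.5% and 23.8%.

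**Figure D1:**
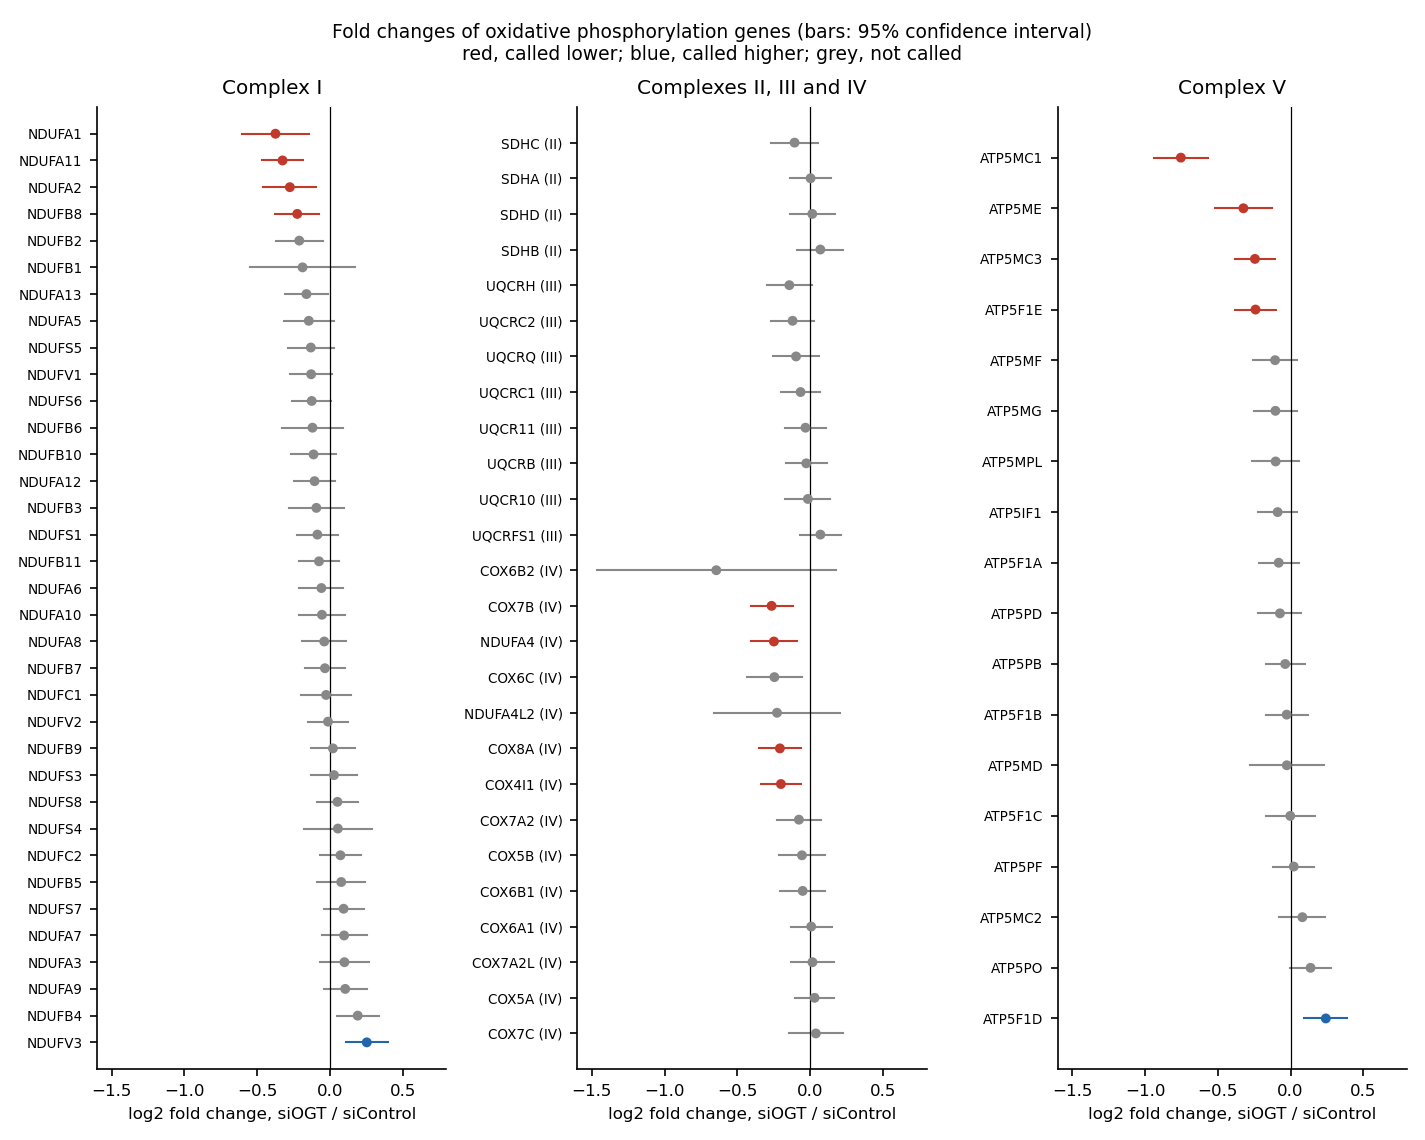
Log2 fold change of siOGT against siControl (x axis) for 79 of the 82 tested members, the 2 read-through symbols and 1 subunit of complex I left out (y axis), sorted within complexes I, II to IV and V; points are edgeR estimates, bars are 95% confidence intervals, red marks the 12 members that fell and blue the 2 that rose. Most points lie slightly left of 0, ATP5MC1 at -0.75 is the leftmost red point, and no member of complexes II and III is coloured.

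In complex I, which carries the largest number of subunits, 4 of 37 members fell (10.8%, beside 12.7% of all genes) and 1 rose (2.70%, beside 12.7%), and the median fold change was -0.059. The 7 core subunits hold the flavin and the iron-sulphur clusters that conduct electrons from NADH to ubiquinone. They included 0 called members, beside 25.4% of all genes, and 0 with an unadjusted p below 0.05, beside 5456 of all 14853 genes. NDUFV1, the flavoprotein that receives electrons from NADH, was measured at 148, 157 and 156 CPM in siControl and at 122.6, 152 and 148 CPM in siOGT (log2 fold change -0.13, interval -0.27 to 0.013, adjusted p 0.176). NDUFS1, the largest iron-sulphur subunit, stood at 76.7, 67.7 and 70.9 CPM in siControl and 73.4, 65.9 and 63.6 CPM in siOGT (log2 fold change -0.086, interval -0.22 to 0.052). Both were lower in each pair, with overlapping groups. The 5 called members of the complex were among the 29 accessory subunits, which surround the core and are needed for its assembly and stability, that is 17.2% of them beside 25.4% of all genes, and the difference from the core was not tested.

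NDUFA1 (chromosome X, 119871832 to 119876662, plus strand, hg38), a small subunit of the membrane arm, had the largest decrease of the complex. It stood at 10.6, 12.5 and 11.3 CPM in siControl and at 7.40, 10.5 and 8.73 CPM in siOGT. The siOGT values were below all siControl values, and the log2 fold change was -0.37 (SE 0.108, adjusted p 0.0169). NDUFA11 (chromosome 19, 5891276 to 5904006, minus strand), another membrane arm subunit that stabilises the complex, went from 53.9, 75.2 and 73.3 CPM to 41.2, 63.5 and 57.5 CPM. Replicate 1 was low in both groups, so the groups overlapped, yet each pair fell by a similar amount, with log2 ratios of -0.39, -0.25 and -0.35, and the fold change was -0.33 (SE 0.067, adjusted p 0.0019).

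NDUFA2 (chromosome 5, 140638740 to 140647771, minus strand), a subunit of the matrix arm, read 42.9, 43.0 and 33.0 CPM in siControl and 31.7, 32.5 and 33.3 CPM in siOGT (log2 fold change -0.28, SE 0.086, adjusted p 0.0257). It was the exception among the 12 members that fell in not being lower in every pair, since siControl library 3 was at the siOGT level. NDUFB8 (chromosome 10, 100523740 to 100530000, minus strand), a membrane arm subunit often used as a protein marker of the complex, went from 41.9, 49.6 and 46.3 CPM to 35.1, 39.7 and 43.3 CPM (log2 fold change -0.22, SE 0.072, adjusted p 0.0298), with overlapping groups and a decrease in each pair. In the opposite direction, NDUFV3 (chromosome 21, 42879644 to 42913304, plus strand), an accessory subunit of the NADH-oxidising module, rose from 55.6, 49.5 and 58.5 CPM to 64.01, 63.5 and 67.2 CPM (log2 fold change 0.25, SE 0.068, adjusted p 0.0113). All siOGT values of NDUFV3 lay above all siControl values.

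Next to the threshold were 2 further accessory subunits of the membrane arm that moved in opposite directions. NDUFB2 was measured at 33.9, 38.6 and 34.5 CPM in siControl and at 29.4, 30.5 and 32.5 CPM in siOGT (log2 fold change -0.21, adjusted p 0.0512). NDUFB4 was measured at 72.5, 74.8 and 63.9 CPM and at 79.5, 80.1 and 81.1 CPM (log2 fold change 0.19, adjusted p 0.0510). In both genes the groups did not overlap. Among the members of the complex that were not called, these 2 had the extreme fold changes.

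Complex II, succinate dehydrogenase, also serves the tricarboxylic acid cycle and has no subunit from mitochondrial DNA. EdgeR called 0 of its 4 members, beside 25.4% of all genes, and DESeq2 with the block 0, beside 19.2%. At an unadjusted p below 0.05 were 0 of the 4, beside 5456 of all 14853 genes. With 4 members, a count of 0 says little about the complex. SDHA, the flavoprotein that oxidises succinate, stood at 341, 372 and 393 CPM in siControl and 343, 396 and 369 CPM in siOGT (log2 fold change 0.0023, interval -0.14 to 0.14). For SDHB, the iron-sulphur subunit, the values were 51.0, 52.0 and 57.1 CPM and 56.4, 59.6 and 52.1 CPM (log2 fold change 0.069, interval -0.089 to 0.23). The groups of both genes overlapped and the pairs went both ways. The membrane anchor SDHC had 33.4, 36.6 and 29.5 CPM and 32.9, 30.99 and 28.3 CPM (log2 fold change -0.11, interval -0.27 to 0.053), lower in each pair with overlapping groups. SDHD, the other anchor, had a log2 fold change of 0.014 (interval -0.14 to 0.17).

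In complex III, edgeR likewise called 0 of 8 members, beside 25.4% of all genes, and DESeq2 with the block 0, beside 19.2%. At an unadjusted p below 0.05 were 0 of the 8, beside 5456 of all 14853 genes. With 8 members, these counts too say little. Yet 7 of the 8 fold changes were below 0 (median -0.050). UQCRH, the hinge protein between cytochromes, had the lowest fold change, from 36.4, 42.2 and 39.2 CPM to 34.2, 34.8 and 37.6 CPM (log2 -0.14, interval -0.30 to 0.012, adjusted p 0.171). UQCRC1, the core protein that faces the matrix, read 251, 272 and 278 CPM and then 229, 264 and 273 CPM (log2 fold change -0.067, interval -0.20 to 0.069). Both genes were lower in each pair with overlapping groups. UQCRFS1, the Rieske iron-sulphur protein, was the member above 0, at 93.1, 90.2 and 97.1 CPM in siControl and 92.7, 92.7 and 109 CPM in siOGT (log2 fold change 0.070, interval -0.069 to 0.21).

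In complex IV, cytochrome c oxidase, 4 of 14 members fell (28.6%, beside 12.7% of all genes), 0 rose (beside 12.7%), and the median was -0.14. All of its nuclear subunits surround a catalytic core made from mitochondrial DNA. Each of the 4 had siOGT values below all siControl values and was lower in every pair. COX7B (chromosome X, 77899440 to 77907376, plus strand), a small subunit of the membrane part, went from 45.5, 53.3 and 48.3 CPM to 37.5, 44.6 and 40.3 CPM, with nearly equal log2 ratios of -0.28, -0.26 and -0.26 in the pairs (log2 fold change -0.27, SE 0.068, adjusted p 0.00848). NDUFA4 (chromosome 7, 10931943 to 10940153, minus strand), first assigned to complex I, went from 36.9, 41.9 and 38.9 CPM to 28.9, 34.6 and 35.7 CPM (log2 fold change -0.25, SE 0.074, adjusted p 0.0200).

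COX8A (chromosome 11, 63974620 to 63976543, plus strand), the common isoform of subunit 8, went from 124, 154 and 127 CPM to 106, 121 and 122 CPM (log2 fold change -0.21, SE 0.069, adjusted p 0.0333). COX4I1 (chromosome 16, 85798633 to 85807068, plus strand), the common isoform of the largest nuclear subunit, went from 70.1, 78.4 and 74.1 CPM to 60.3, 66.0 and 67.3 CPM (log2 fold change -0.20, SE 0.066, adjusted p 0.0316). In COX8A pair 3 carried little of the decrease, at -0.057 against -0.23 and -0.34 in the other pairs. COX6C, a further membrane subunit, stood at 16.95, 16.85 and 19.6 CPM in siControl and at 13.4, 15.3 and 16.3 CPM in siOGT, without overlap and lower in each pair, yet was not called (log2 fold change -0.25, adjusted p 0.0538). With scaling by library totals COX8A and COX4I1 were not called, at adjusted p 0.0583 and 0.0538, and with the length and GC offsets COX8A was not called either (log2 fold change -0.13, adjusted p 0.109).

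Other subunits of complex IV differed little between the groups. COX6A1, the common isoform of subunit 6A, had 247, 332 and 302 CPM in siControl and 232, 330 and 328 CPM in siOGT (log2 fold change 0.0065, interval -0.13 to 0.15). COX5A, a subunit on the matrix side, had 84.8, 84.1 and 86.0 CPM and 87.7, 87.4 and 85.1 CPM (log2 fold change 0.030, interval -0.10 to 0.16). COX7A2, the common isoform of subunit 7A, and COX7A2L, a related protein that joins respiratory supercomplexes, had log2 fold changes of -0.078 and 0.015. COX7C, a small membrane subunit, had the highest fold change of the complex, at 22.0, 21.5 and 19.9 CPM and then 19.6, 23.1 and 22.5 CPM, with overlapping groups (log2 0.038, interval -0.15 to 0.22). The isoforms restricted to other tissues were near the floor of detection. COX6B2, the testis isoform of subunit 6B, had 29, 29 and 14 counts in siControl and 19, 16 and 11 counts in siOGT, which left a wide interval (log2 fold change -0.65, interval -1.47 to 0.18), and COX7A1 had at most 3 counts in any library. NDUFA4L2, a paralog of NDUFA4 known to be induced by low oxygen, stayed at 1.67 to 3.73 CPM, with overlapping groups (log2 fold change -0.23, interval -0.66 to 0.20).

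In complex V, the ATP synthase, 4 of 19 members fell (21.1%, beside 12.7% of all genes), 1 rose (5.26%, beside 12.7%), and the median was -0.082. The decrease of ATP5MC1 (chromosome 17, 48892765 to 48895871, plus strand) exceeded all others of the system. Its siControl libraries had 954, 1043 and 883 counts and its siOGT libraries 477, 669 and 586, which corresponded to 35.7, 41.0 and 31.6 CPM against 17.7, 24.9 and 21.9 CPM. Every siOGT value lay well below every siControl value, and the pairs kept 49.5%, 60.7% and 69.1% of the siControl level. The fold change amounted to a decrease of 40.7% (log2 -0.75, interval -0.94 to -0.57), and 161 of the 1881 genes that fell did so by more. It was called under 10 of 11 alternatives, its fold change ranging from -0.87 to -0.63, and narrowly missed the threshold without the block (adjusted p 0.0502).

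The genes ATP5MC1, ATP5MC2 and ATP5MC3 encode the same mature c subunit, of which a ring in the membrane turns with the flow of protons, and differ in the peptide that directs the protein to mitochondria. ATP5MC3 (chromosome 2, 175176258 to 175181710, minus strand) went from 53.8, 62.4 and 59.9 CPM to 45.4, 52.3 and 50.9 CPM, without overlap and with log2 ratios of -0.24, -0.25 and -0.24 in the pairs (log2 fold change -0.24, SE 0.067, adjusted p 0.0119). ATP5MC2, the most abundant of the genes, had 238, 299 and 232 CPM and 228, 296 and 289 CPM, with overlapping groups (log2 fold change 0.081, interval -0.077 to 0.24, adjusted p 0.473). Per kilobase of transcript, ATP5MC1 made up 15.7% to 17.4% of the summed c subunit level in siControl and 10.03% to 11.02% in siOGT. The corresponding share of ATP5MC2 was 65.2% to 67.6% and 73.4% to 75.01%. The summed level of the 3 genes overlapped between the groups, at 324 to 402 CPM and 291 to 373 CPM. GENCODE 44 names 8 pseudogenes of ATP5MC1. Its counts were whole numbers in all libraries, unlike those of 12 members whose counts were fractional in 1 or more libraries. Whole counts cannot show that no reads were shared with pseudogenes, because the annotation behind the counts, and so its pseudogenes, is uncertain.

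**Figure D2:**
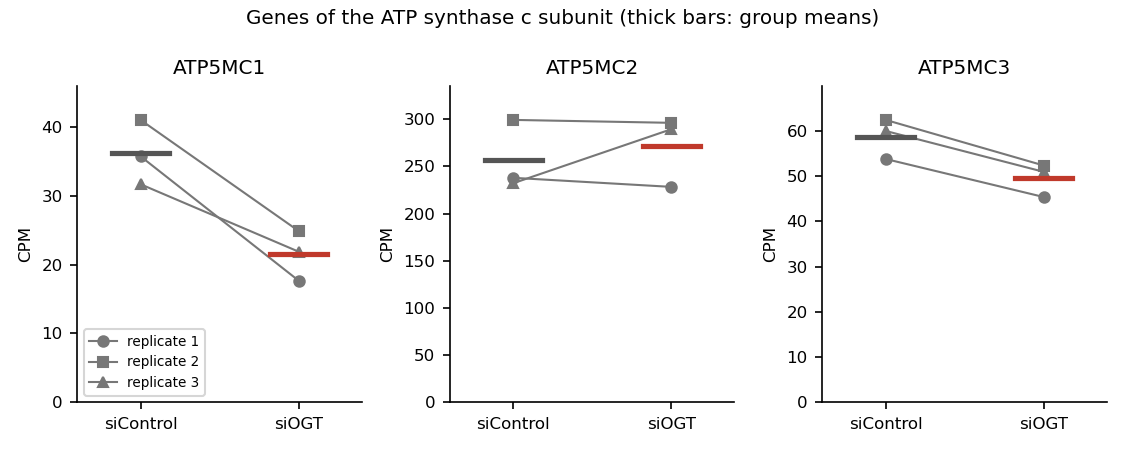
CPM (y axis, from 0, a different scale in each panel) of ATP5MC1, ATP5MC2 and ATP5MC3 in siControl and siOGT (x axis); symbols are libraries, lines join the libraries of one replicate and thick bars are group means. ATP5MC1 drops in every pair, from 31.6 to 41.0 CPM to 17.7 to 24.9 CPM, ATP5MC3 drops less, and ATP5MC2 shows overlapping groups.

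Among the subunits of the catalytic part, small subunits of the central stalk moved in opposite directions while the head showed no call. ATP5F1A and ATP5F1B, the alpha and beta subunits that form ATP, had log2 fold changes of -0.082 (interval -0.22 to 0.055) and -0.027 (interval -0.17 to 0.12). ATP5F1B was abundant, at 509, 554 and 550 CPM in siControl and 463, 545 and 580 CPM in siOGT, with overlapping groups. ATP5F1E (chromosome 20, 59025475 to 59032345, minus strand), the epsilon subunit of the central stalk, went from 58.6, 66.9 and 71.3 CPM to 48.8, 57.8 and 60.0 CPM (log2 fold change -0.24, SE 0.066, adjusted p 0.0124). The groups overlapped through a low siControl library 1, and the pairs fell evenly, by 0.26, 0.21 and 0.25. ATP5F1D (chromosome 19, 1241746 to 1244825, plus strand), the neighbouring delta subunit, rose from 95.7, 131 and 123.3 CPM to 106, 145 and 166 CPM (log2 fold change 0.24, SE 0.070, adjusted p 0.0176). Here too the groups overlapped and each pair moved the same way. The increase rested most on pair 3, without which the log2 fold change was 0.14 (adjusted p 0.110). It was also not called without replicate 1 (adjusted p 0.061), and with the length and GC offsets it was 0.38.

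In the membrane and peripheral parts of the ATP synthase, ATP5ME (chromosome 4, 672436 to 674330, minus strand), subunit e at the interface of paired enzymes, fell from 16.1, 17.2 and 15.4 CPM to 12.1, 13.6 and 13.1 CPM (log2 fold change -0.32, SE 0.094, adjusted p 0.0169). The siOGT values of ATP5ME were below all siControl values. With the length and GC offsets it was not called (log2 fold change -0.22, adjusted p 0.0793). ATP5PO, a subunit of the peripheral stalk, had 75.2, 68.35 and 67.6 CPM in siControl and 77.4, 74.6 and 80.2 CPM in siOGT, the highest fold change among members of the complex not called (0.14, adjusted p 0.149), with overlapping groups. ATP5IF1, which blocks hydrolysis of ATP by the reversed enzyme, had 84.7 to 93.5 CPM in siControl and 79.7 to 89.6 CPM in siOGT, lower in each pair with overlapping groups (log2 fold change -0.089, interval -0.22 to 0.045). The read-through symbol ATP5MF-PTCD1 had counts of 60, 184 and 0 in siControl and 98, 0 and 68 in siOGT, which jumped between 0 and higher values within both groups (log2 fold change -0.22, interval -2.08 to 1.65). It shares exons with ATP5MF, and the counts of both symbols were fractional in 4 libraries, so neither the read-through nor its split from ATP5MF is certain.

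**Figure D3:**
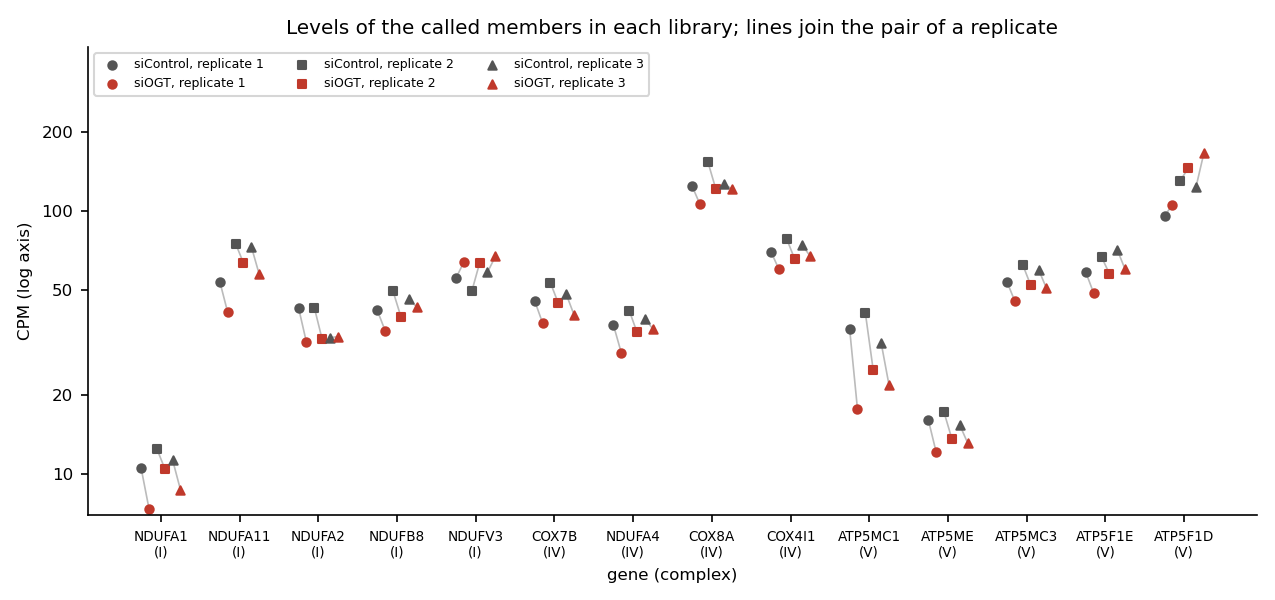
Level in CPM (y axis, log scale) of the 14 called members (x axis, complex in brackets) in every library; grey symbols are siControl, red symbols siOGT, and lines join the libraries of one replicate. All pairs slope down in 11 of the 12 members that fell, NDUFA2 being the exception with a flat pair 3, and all pairs slope up in NDUFV3 and ATP5F1D.

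By complex, the medians ran from 0.0081 in complex II over -0.050 in complex III, -0.059 in complex I and -0.082 in complex V to -0.14 in complex IV. The medians of complex IV were -0.23, -0.18 and -0.035 in pairs 1, 2 and 3, and those of complex V were -0.15, -0.091 and 0.051. Those of complex III were -0.081, -0.11 and 0.027, and those of complex II were -0.0068, 0.013 and -0.076. For complexes III and V pair 3 was thus on the other side of 0 from the other pairs, and for complex II pair 2 was. Differences between complexes were not tested.

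**Figure D4:**
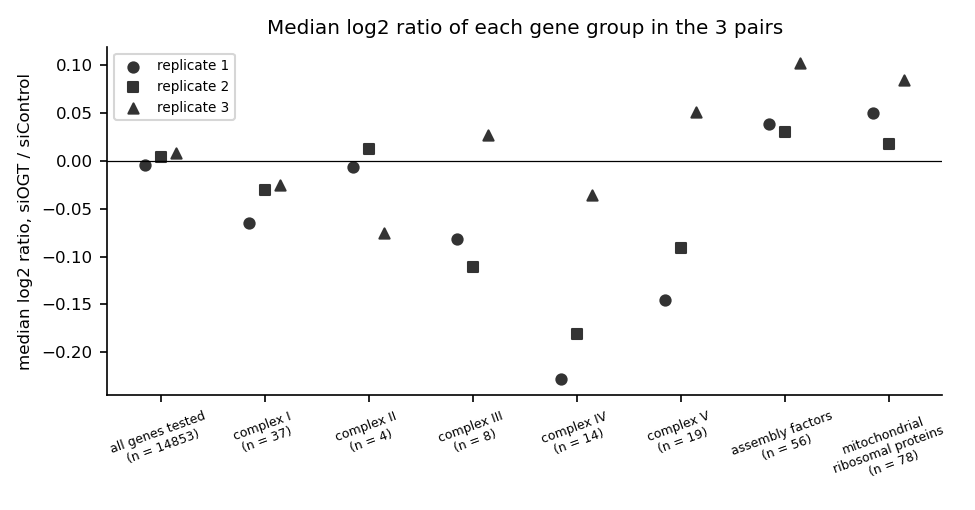
Median log2 ratio of siOGT to siControl within a pair (y axis) for all genes tested, the members of each complex, assembly factors and mitochondrial ribosomal proteins (x axis, number of genes in brackets); each symbol is 1 replicate pair. All genes lie near 0 in each pair, complexes I and IV lie below 0 in each pair, at -0.23, -0.18 and -0.035 for complex IV, and assembly factors and mitochondrial ribosomal proteins lie above 0 in each pair.

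The order of levels within a complex was set per kilobase of transcript in siControl (mean ± SD, n = 3), with the median length of the annotated coding transcripts, so that it is approximate. In complex I, NDUFS8 led with 538 ± 59.8 CPM per kb, followed by NDUFB11 with 239 ± 27.2, and NDUFA5 with 8.78 ± 0.885 and NDUFV3 with 10.5 ± 0.892 were lowest, apart by less than their summed SD. In complex II, SDHA stood at 172 ± 12.2 and SDHB at 52.6 ± 3.27, while SDHC and SDHD lay between them at 72.1 ± 7.72 and 62.4 ± 6.69, with SDHC and SDHD, and SDHD and SDHB, apart by less than their summed SD. In complex IV, COX6A1 led with 547 ± 80.9, followed by COX8A with 273 ± 33.0 and COX6B1 with 225 ± 18.5, again apart by less than their summed SD. In complex V, ATP5MF led with 636 ± 68.4, followed by ATP5F1B with 306 ± 14.3 and ATP5MC2 with 269 ± 38.9, likewise, and ATP5MC1 stood at 67.0 ± 8.69 beside ATP5MC3 at 69.7 ± 5.28. Called members were found across the whole range of levels, from COX8A, next to the top of complex IV, to NDUFV3, next to the bottom of complex I.

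Members have short transcripts, with a median length of 697 bases against 2642 over the genes tested, and a GC content of 49.5% against 49.6%. Respiratory genes are known for promoters that bind NRF1, GABP and YY1. The letters GCGCA and GCGC with any base between them (NRF1), CCGGAAG (GABP) and AANATGGC (YY1) were searched on both strands of the 300 bases from 250 before to 50 after the start in RefSeq (GRCh38.p14), for the 66 of 80 members, read-through symbols aside, that matched the table. At least 1 of the 3 motifs was present in 63.6% of the members, compared with 32.5% of the promoters of genes tested and 20.8% of all 27305 promoters. Singly, the NRF1 letters were in 24.2%, the GABP letters in 30.3% and the YY1 letters in 33.3% of the members, compared with 10.7%, 17.8% and 9.39% of the promoters of genes tested and 6.28%, 10.7% and 6.82% of all promoters. The share with any motif was similar in members that fell, 6 of 10, and in members that were not called, 36 of 55.

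Promoters are shown for ATP5MC1, the member with the largest decrease, and for NDUFA11, NDUFA1 and COX7B, which fell and hold the NRF1, GABP and YY1 letters in turn, as the bases just before the RefSeq start in lower case with the motif in capitals. ATP5MC1 held none of the 3 motifs, and its capitals mark TGACGTCA, the cAMP response element, 57 bases before the start. This element was searched after the sequences were seen and was present in 5 of the 66 members (NDUFA10, NDUFB2, SDHB, ATP5MC1 and ATP5ME), or 7.58%, against 3.11% of genes tested and 1.98% of all promoters. The capitals mark an NRF1 motif 98 bases before the start in NDUFA11, a GABP motif 47 before in NDUFA1 and a YY1 motif 8 before in COX7B, each as read on the gene's strand and in either orientation. The windows are chr17:48892637-48892786 (plus strand), chr19:5903791-5903940 (minus strand), chrX:119871742-119871831 (plus strand) and chrX:77899318-77899467 (plus strand). In GENCODE, the last 22 bases of the ATP5MC1 window and the last 28 of the COX7B window fall in the first exon of a longer coding transcript, the NDUFA11 window lies in an exon of a transcript with no defined coding sequence, and the NDUFA1 window is intergenic. The start of the ATP5MC1 window overlaps an exon of the pseudogene SUMO2P17, and YY1 letters further upstream of NDUFA1 are not shown.
ATP5MC1: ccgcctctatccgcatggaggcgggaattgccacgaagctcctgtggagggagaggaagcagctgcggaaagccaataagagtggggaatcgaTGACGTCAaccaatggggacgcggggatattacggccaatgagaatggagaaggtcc
NDUFA11: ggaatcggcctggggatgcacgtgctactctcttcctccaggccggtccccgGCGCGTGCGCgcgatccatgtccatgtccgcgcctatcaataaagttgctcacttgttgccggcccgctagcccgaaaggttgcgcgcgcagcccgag
NDUFA1: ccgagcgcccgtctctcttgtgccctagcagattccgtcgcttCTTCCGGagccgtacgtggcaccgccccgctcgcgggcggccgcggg
COX7B: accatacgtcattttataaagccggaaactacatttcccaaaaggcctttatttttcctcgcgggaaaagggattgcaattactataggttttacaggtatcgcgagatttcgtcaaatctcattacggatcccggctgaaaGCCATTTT

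Genes that serve the complexes without being in the symbol pattern were read from the same fit. Of 56 assembly factors, which build the complexes and insert their cofactors, 6 rose (10.7%) and 2 fell (3.57%), beside 12.7% of all genes in each direction, with a median of 0.076 and a fold change below 0 in 24. Those that rose were NDUFAF4 of complex I (log2 fold change 0.37, adjusted p 0.0204), UQCC2 of complex III (0.21) and COA7 (0.33), COX18 (0.32), COX10 (0.32) and SCO1 (0.21) of complex IV. COX10, which makes a precursor of the haem of complex IV, went from 23.2, 22.0 and 21.8 CPM to 28.7, 24.3 and 30.8 CPM, without overlap. PET100, which assists complex IV, had the largest decrease of the list, from 6.77, 8.05 and 6.49 CPM to 3.78, 6.43 and 5.63 CPM (log2 fold change -0.44, adjusted p 0.0327), and ACAD9, a factor of complex I, fell by 0.23. DESeq2 with the block called 0 of the 56, beside 19.2% of all genes. The complex IV factors SURF1 and SCO2 were at 0.22 (adjusted p 0.0813) and 0.27 (adjusted p 0.148).

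The subunits that the symbol pattern misses, CYC1 of complex III and NDUFAB1 of complex I, and the electron carrier cytochrome c (CYCS) had log2 fold changes of -0.11, 0.15 and -0.068. EdgeR called 0 of these 3, beside 25.4% of all genes, and DESeq2 with the block 0, beside 19.2%. None of these 3 had an unadjusted p below 0.05. Of 20 genes that copy, transcribe and process mitochondrial DNA and its RNA, 0 were called by edgeR, beside 25.4% of all genes. At an unadjusted p below 0.05 were 3 of the 20, beside 5456 of all 14853 genes. With scaling by library totals 1 was called, beside 14.2% of all genes higher and 10.9% lower. TFAM, which packages mitochondrial DNA, was at 0.080 and LRPPRC, which stabilises mitochondrial messenger RNA, at -0.049. Mitochondrial ribosomal proteins, which translate the mitochondrial messages, were mixed, with 9 of 78 higher (11.5%) and 4 lower (5.13%), beside 12.7% of all genes in each direction, and a median of 0.039. MRPL1 rose most (log2 fold change 0.44, adjusted p 0.0042) and MRPL41 fell most (-0.42, adjusted p 0.00164).

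Of 14 regulators of mitochondrial biogenesis, 3 rose and 1 fell, so that 28.6% were called beside 25.4% of all genes. PPRC1, a coactivator related to PGC-1 alpha, rose from 106, 79.2 and 86.1 CPM to 134, 104 and 117 CPM (log2 fold change 0.39, SE 0.064, adjusted p 2.936e-04). SIRT1, a deacetylase that acts on PGC-1 alpha, rose from 27.0, 22.6 and 22.9 CPM to 39.0, 27.5 and 36.0 CPM without overlap (log2 fold change 0.49, SE 0.083, adjusted p 3.889e-04). PPARGC1A, which encodes PGC-1 alpha itself, was low, at 3.37, 2.36 and 2.61 CPM and then 6.18, 2.304 and 4.21 CPM, and only just passed the test (log2 fold change 0.55, adjusted p 0.0490), and did not rise in pair 2. HCFC1, a transcriptional coregulator that OGT cleaves, fell by 0.22 (adjusted p 0.0367), and NRF1 was at -0.082 with overlapping groups. Of 14 genes of the tricarboxylic acid cycle, 2 fell and 0 rose, or 14.3% called beside 25.4% of all genes. IDH2, the NADP-dependent mitochondrial isocitrate dehydrogenase, went from 49.4, 48.6 and 42.7 CPM to 34.2, 32.6 and 28.1 CPM without overlap (log2 fold change -0.57, SE 0.071, adjusted p 2.192e-05), and CS, citrate synthase, fell by 0.20 (adjusted p 0.0346).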

How the data were processed

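RNA of 6 LX-2 libraries, 3 siControl and 3 siOGT, was analysed. The authors prepared stranded libraries from polyadenylated RNA, aligned paired reads to hg38 with Bowtie2 2.3.5.1 and deposited RSEM 1.3.1 expected counts for each gene symbol, without normalization. Reads matching several genes are divided between them in such counts. The exact annotation used is uncertain, since the methods name GENCODE while some symbols have the form of RefSeq. A table of the authors' own comparison, with fold changes and p-values, was not used.

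Expected counts were rounded, and 2054 symbols with a total below 10, holding 0.00447% of the counts, were removed. After TMM scaling, edgeR 4.0.16 under R 4.3.3 tested 14853 genes by the quasi-likelihood F test (two-sided), blocked on the replicate number and adjusted by Benjamini-Hochberg. The procedure was tried on simulated data with changes larger than those of most called members, so its power for changes as small as theirs was not tested. Intervals and SE were derived from the F statistic, and ratios within pairs used a prior count of 2. The pairing comes from the study's methods, and deviations from group means correlated within pairs by 0.688, 0.525 and 0.332 over 12373 genes with at least 1 CPM. Libraries of a group differed by more than counting noise. Alternatives were DESeq2 1.42.0, other scalings and filters, length and GC offsets, no block, and leaving out each pair.

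Values per library are given for the 3 largest changes among called members per complex and direction, the extremes not called, and a fixed list of subunits and regulators, some with fold changes only. NDUFB8, COX5A, COX6C, ATP5F1E, ACAD9, COA7, COX10, COX18, SCO1, UQCC2, PPRC1, SIRT1, CS and the examples of promoters were added after their values were seen. The values of 1 member, which is included in the counts, are not reported here. The members and lists were chosen with earlier results of these data known. Coordinates are from GENCODE 44.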

Additional observations from a re-analysis of the deposited data

How the results depend on the processing

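Every called member kept its direction under all 11 alternatives, and the median fold change of the 82 members stayed between -0.094 and -0.036. This range lay within the spread of the pairs. Its ends came from the fits without replicate 3 and without replicate 1, so that spread is not an independent measure of it. The number of calls depended on the processing, and the causes were not tested beyond the construction of each alternative. Main counts were 2 members higher, 12 lower, 5 in complex I, 4 in complex IV, 5 in complex V, 8 assembly factors, 4 biogenesis regulators, 2 genes of the tricarboxylic acid cycle, 13 mitochondrial ribosomal proteins and 0 genes of mitochondrial DNA expression. Without the replicate block, edgeR called 0 in all of these groups and 0.875% of all genes. DESeq2 without the block, chosen after seeing the data, called 0 members higher, 1 lower, 0 in complexes I and IV, 1 in complex V, 0 assembly factors, 1 biogenesis regulator, 1 gene of the tricarboxylic acid cycle and 0 mitochondrial ribosomal proteins. DESeq2 with the block called 6 members lower, 2 each in complexes I and IV, 0 assembly factors and 4 mitochondrial ribosomal proteins. Length and GC offsets with the block gave 5 members higher, 8 calls in complex I, 1 in mitochondrial DNA expression and 2 biogenesis regulators. Library totals gave 2 calls in complex IV, 1 in mitochondrial DNA expression and 1 in the tricarboxylic acid cycle. Leaving out each pair in turn gave 0 to 3 members higher, 2 to 17 lower, 1 to 9 calls in complex I, 0 to 4 in complex IV, 1 to 6 in complex V, 0 to 7 assembly factors, 2 to 4 biogenesis regulators, 1 to 2 genes of the tricarboxylic acid cycle and 5 to 9 mitochondrial ribosomal proteins. The lowest counts of members came without replicate 1. The share of all genes called moved too. The main fit called 25.4% of them, and DESeq2 6.77% without the block and 19.2% with it. Without replicates 1, 2 and 3 edgeR called 12.5%, 22.5% and 23.8% of all genes. Length and GC offsets called 14% higher and 13.9% lower, and library totals 14.2% and 10.9%. The ATP5MF-PTCD1 log2 fold change of the read-through symbol ran from -1.47 without replicate 3 to 1.85 without replicate 2, where its sign turned (adjusted p 3.357e-06). Counts of at most 95 per library limited what could be detected for COX6B2 and NDUFA4L2.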
